A study of Mus musculus with 6 samples.

Results

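The 10 genes described here encode the pumps that clear calcium from the cytosol, the IP3 receptors that release it from the endoplasmic reticulum, and the sensor and pore that refill the store. They were selected by gene name with the differences between the knockdown and control libraries already known, so their values in this contrast are a description and carry no test. Where their side of a threshold is given below, it is read from the fit of all genes as a description and is no support for a difference. All 10 names occurred once each among the 54532 genes of the deposited table. RNA was sequenced in 6 mouse libraries whose labels give the cell line MIN6, which was derived from an insulinoma and serves as a model of the beta cell. Of these, 3 had the genotype label PP2Ac knockdown and carry the sample name sh2, and 3 were labelled control and carry the name shc. PP2Ac is the subunit of PP2A, a phosphatase of serine and threonine residues, that holds the active site. The labels name no lipid or other treatment of these libraries, and they name a single knockdown condition, so the loss of PP2Ac and other effects of that one reagent cannot be told apart. No label says whether the libraries of a group came from separate cultures, so the p-values given below measure the spread between these samples, which may be technical.

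Cytosolic calcium is kept low by ATP-driven pumps. The SERCA pumps, encoded by Atp2a genes, move calcium into the endoplasmic reticulum, the PMCA pumps of the Atp2b genes expel it across the plasma membrane, and the SPCA pump of Atp2c1 loads the Golgi with calcium and manganese. Phospholipase C makes IP3, which opens IP3 receptors and empties the reticulum. STIM1 senses the emptied store and opens the plasma membrane channel ORAI1, a route called store-operated entry. In beta cells these proteins shape the calcium signals that accompany insulin secretion.

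The levels are FPKM, reads scaled by gene length and by a factor for each library, as the authors deposited them. That factor was not the library's own summed reads: control library 3 held 16030939 reads, and its values imply a divisor of 16418113. They rest on 14614737 to 15551377 reads per knockdown library and 15270436 to 16030939 reads per control library, recovered from the steps of the values. The labels name PP2Ac but not which of its genes the reagent targets. Ppp2ca, which encodes a form of PP2Ac and is taken here as the target, had 10.1, 11.4 and 10.9 FPKM in knockdown libraries. In control libraries Ppp2ca had 42.5, 34.6 and 35.6 FPKM. Its log2 difference, knockdown minus control on the log2(FPKM + 1) scale, was -1.70 (SE 0.0917), with an adjusted p of 5.35e-06 in limma. An exact permutation test, two-sided, gave p = 0.1, and groups of 3 and 3 allow none smaller. Ppp2cb, which encodes the other form of this subunit, averaged 86.9 ± 3.45 FPKM in knockdown and 101.0 ± 10.6 FPKM in control (SD, n = 3 each; limma adjusted p = 0.0660). Of 20 beta cell markers, 17 had a mean below 1 FPKM and 10 were listed at 0 in all 6 libraries, among them Ins1, Ins2, Nkx6-1 and Slc2a2, so the beta cell label is not matched by these defining transcripts, although Pdx1 (3.96 FPKM in knockdown and 1.68 FPKM in control) and Mafa (4.86 FPKM in knockdown and 1.78 FPKM in control) were detected. Ero1lb, the other marker with a mean of at least 1 FPKM, went the other way. It had 1.42 FPKM in knockdown and 1.8 FPKM in control (limma adjusted p = 0.109). The summed level of the 20 markers was 9.62 to 11.2 FPKM in knockdown libraries and 4.90 to 6.38 FPKM in control libraries. Pdx1 and Mafa make up most of this sum. Of the 11652 genes with a mean of at least 1 FPKM, 62.4% were past the threshold used throughout, an adjusted p of 0.05 in limma; 33.3% of the 11652 lay higher in knockdown and 29.1% lower. The balance of directions depended on the processing: 3879 genes were higher and 3388 lower here, against 3293 higher and 3827 lower with libraries scaled to equal sums of nuclear protein-coding FPKM, and 4001 higher and 4122 lower with no filter on low values. Counts of genes given below are to be read against these shares.

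The promoters of Atp2a3, Stim1 and Orai1 are shown because these 3 genes had the largest differences on the log2(FPKM + 1) scale among the 9 with a mean of at least 1 FPKM. By the ratio of means Itpr1, which has no entry in the promoter table, differed more than Orai1. Each sequence runs from 250 bases before to 50 bases after the RefSeq start on its own strand, in GRCm38.p6. Capitals mark the GC box, GGGCGG on either strand, a motif bound by Sp1 family factors.
Atp2a3, chr11:72960919-72961218, plus strand: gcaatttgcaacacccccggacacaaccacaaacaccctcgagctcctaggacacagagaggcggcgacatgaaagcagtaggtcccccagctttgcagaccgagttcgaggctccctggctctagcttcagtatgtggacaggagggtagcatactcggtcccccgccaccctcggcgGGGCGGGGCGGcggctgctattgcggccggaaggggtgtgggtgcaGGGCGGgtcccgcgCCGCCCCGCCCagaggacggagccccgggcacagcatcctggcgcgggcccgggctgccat
Stim1, chr7:102267569-102267868, plus strand: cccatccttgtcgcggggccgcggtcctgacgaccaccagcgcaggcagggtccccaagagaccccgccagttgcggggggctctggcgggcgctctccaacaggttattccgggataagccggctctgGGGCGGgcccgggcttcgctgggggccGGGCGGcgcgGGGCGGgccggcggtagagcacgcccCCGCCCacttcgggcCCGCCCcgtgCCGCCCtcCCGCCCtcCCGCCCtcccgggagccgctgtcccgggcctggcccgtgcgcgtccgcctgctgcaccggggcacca
Orai1, chr5:123014824-123015123, plus strand: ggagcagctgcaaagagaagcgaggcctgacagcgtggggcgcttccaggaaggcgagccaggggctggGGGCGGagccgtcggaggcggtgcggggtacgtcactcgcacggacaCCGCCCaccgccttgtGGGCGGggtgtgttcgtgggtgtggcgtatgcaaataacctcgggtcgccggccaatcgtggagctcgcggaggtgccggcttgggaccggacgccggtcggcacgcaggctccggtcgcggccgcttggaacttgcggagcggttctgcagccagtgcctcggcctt
The Atp2a3 sequence held 5 GC boxes, the first 2 and the last 2 of them overlapping, the Stim1 sequence held 8 and the Orai1 sequence held 3. Among the genes, 8 of 10 matched the RefSeq table by symbol, with 10 promoters in all; Atp2a2 had no entry either. The GC box was present in 8 of these 10 promoters and in 35.7% of all 32851 promoters of the table. The share of G and C was 47.7% to 79.3% in the 10 promoters, against a median of 52.7% over the table. The TATA box TATAAA was in 0 of the 10 and in 13.6% of all promoters. The short site TGACG of cyclic AMP response elements was in 4 of the 10 (Atp2b1, Atp2b4, Orai1 and Stim1) and in 20.8% of all. The NFAT core GGAAA was in 3 of the 10 and in 61.3% of all, and the ER stress response element, CCAAT and CCACG separated by 9 bases, in 0 of the 10 and in 0.119% of all. Both strands were searched for each motif. A match describes the letters in these windows and is not evidence of binding.

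The reticulum pump Atp2a3 was low in knockdown cells. Atp2a3 (ENSMUSG00000020788, chromosome 11, 72961169 to 72993044, plus strand, GRCm38) encodes SERCA3, a lower-affinity SERCA pump known from beta cells, blood cells and some epithelia. Its level was 1.25, 1.29 and 1.20 FPKM in knockdown libraries, against 13.3, 13.3 and 11.6 FPKM in control libraries. The groups lay far apart, and the knockdown libraries were close together. The mean was 1.25 ± 0.0410 FPKM in knockdown and 12.7 ± 0.967 FPKM in control (SD, n = 3 each), so knockdown held 9.78% of the control level. In recovered reads this was 102, 104 and 95 in knockdown against 1120, 1093 and 1008 in control. The log2 difference was -2.61 (SE 0.0816), and 13 of the 11652 tested genes had a lower one. This difference was known when the gene was selected.

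The main reticulum pump differed little. Atp2a2 (ENSMUSG00000029467, chromosome 5, 122453513 to 122502225, minus strand), which encodes SERCA2, the form found in most tissues, had 90.8, 85.4 and 90.4 FPKM in knockdown libraries, against 99.3, 96.1 and 97.3 FPKM in control libraries. The groups did not overlap, yet the knockdown mean was 91.1% of the control mean and the log2 difference was -0.13 (SE 0.0629). This difference was not past the threshold, and it passed it under a single alternative, equal sums of nuclear protein-coding FPKM, at -0.22. Because Atp2a2 was the more abundant, Atp2a3 made up 1.38% ± 0.0872 of the summed FPKM of both genes in knockdown and 11.5% ± 0.787 in control (SD, n = 3 each). The sum of both was 90.1 ± 2.94 FPKM in knockdown and 110.3 ± 1.97 FPKM in control, or 81.7% of control. The FPKM ratio of Atp2a2 to Atp2a3, which does not depend on how libraries are scaled, was 71.4 ± 4.44 in knockdown and 7.69 ± 0.610 in control.

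**Figure D1:**
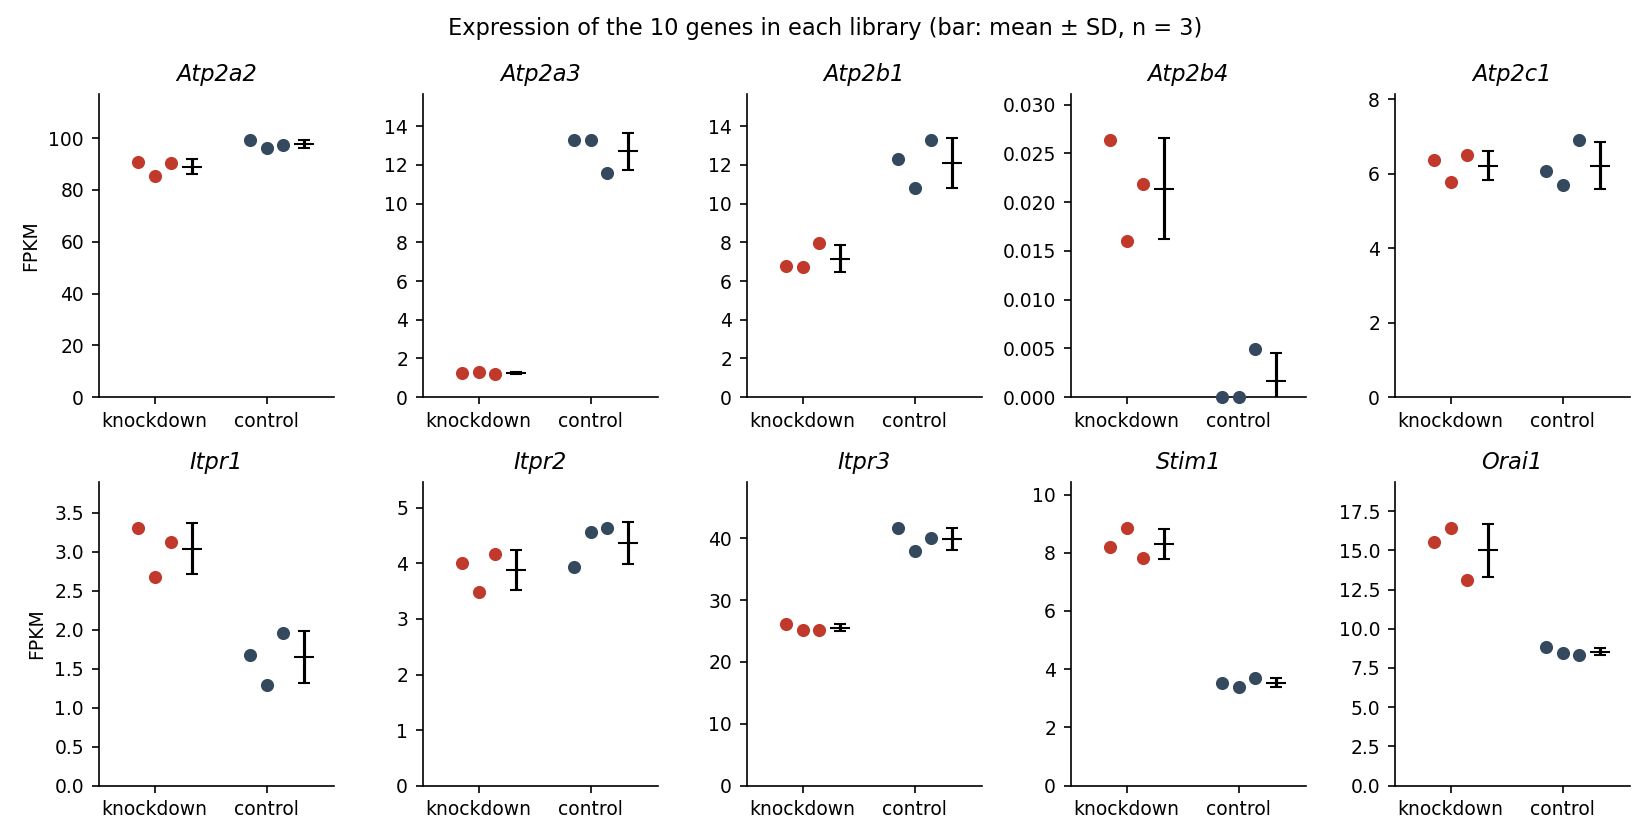
FPKM of the 10 genes in each of the 3 knockdown libraries (red, left) and the 3 control libraries (dark, right), with a separate vertical axis for each gene; bars give the mean ± SD, with the Atp2b4 control bar ending at the axis. Atp2a3 stood at 1.20 to 1.29 FPKM in knockdown libraries and at 11.6 to 13.3 FPKM in control libraries, while Atp2c1 and Itpr2 overlapped between the groups.

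Of the plasma membrane pumps, Atp2b1 carried nearly all of the signal. Atp2b1 (ENSMUSG00000019943, chromosome 10, 98914406 to 99026143, plus strand) encodes PMCA1, the widely expressed form. It had 6.77, 6.72 and 7.96 FPKM in knockdown libraries, against 12.3, 10.8 and 13.3 FPKM in control libraries. All knockdown libraries were below all control libraries, and the mean was 59% of control, with a log2 difference of -0.69 (SE 0.0970). Atp2b4, which encodes PMCA4, was close to absent. It had 5, 3 and 4 reads in knockdown libraries and 0, 0 and 1 read in control libraries, where 3 reads would give at most 0.0164 FPKM. The summed reads were 12 in knockdown and 1 in control, too few to say how far the groups differ. Atp2b4 did not reach the mean of 1 FPKM needed for the fit and was left out of it.

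The Golgi pump gene Atp2c1 (ENSMUSG00000032570, chromosome 9) was level between the groups. It had 6.36, 5.78 and 6.51 FPKM in knockdown libraries, against 6.07, 5.69 and 6.91 FPKM in control libraries. The groups overlapped, both means were 6.22 FPKM, and the log2 difference was 0.00 (SE 0.0875). Exons of Atp2c1 share 1837 bases with Aste1 on the opposite strand, and the strand setting of the counting is not given in the sources used here. Aste1 had 672 reads over the 6 libraries, against 5652 for Atp2c1.

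The 3 IP3 receptor genes did not share a direction: Itpr3 was lower in knockdown cells, Itpr1 was higher and Itpr2 overlapped. Itpr3 (ENSMUSG00000042644, chromosome 17, 27057304 to 27122223, plus strand), the most abundant of them here, had 26.1, 25.1 and 25.2 FPKM in knockdown libraries, against 41.6, 38.0 and 40.1 FPKM in control libraries. The groups did not overlap. The knockdown mean was 63.9% of the control mean, with a log2 difference of -0.63 (SE 0.0646). Itpr1 (ENSMUSG00000030102, chromosome 6, 108213096 to 108551109, plus strand), the form best known from neurons, had 3.30, 2.68 and 3.13 FPKM in knockdown libraries, against 1.68, 1.29 and 1.96 FPKM in control libraries. It was higher in every knockdown library than in any control library, 1.84-fold by the means, with a log2 difference of 0.61 (SE 0.124). Itpr2 (ENSMUSG00000030287, chromosome 6), a form with high affinity for IP3, had 4.0, 3.48 and 4.17 FPKM in knockdown libraries, against 3.94, 4.56 and 4.63 FPKM in control libraries. These groups overlapped, and the log2 difference of -0.14 (SE 0.0935) was not past the threshold.

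The make-up of the IP3 receptor transcripts therefore differed between the groups, and Itpr3 was the largest part in all 6 libraries. Itpr3 made up 78.7% ± 1.42 of their summed FPKM in knockdown and 86.9% ± 1.12 in control. For Itpr1 the share was 9.36% ± 0.684 in knockdown and 3.58% ± 0.629 in control, and for Itpr2 it was 12% ± 0.833 in knockdown and 9.55% ± 1.07 in control (SD, n = 3 each). The sum of the 3 genes was 32.4 ± 1.12 FPKM in knockdown and 45.9 ± 1.79 FPKM in control, 70.6% of control. The FPKM ratio of Atp2a2, which fills the store, to Itpr3, which empties it, was 3.47, 3.41 and 3.58 in knockdown libraries, against 2.39, 2.53 and 2.43 in control libraries. That ratio leaves out Atp2a3, which was lower in knockdown, and Itpr1, which was higher. Summed by family, the Atp2a genes held 81.7% of the control level and the Itpr genes 70.6%.

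**Figure D2:**
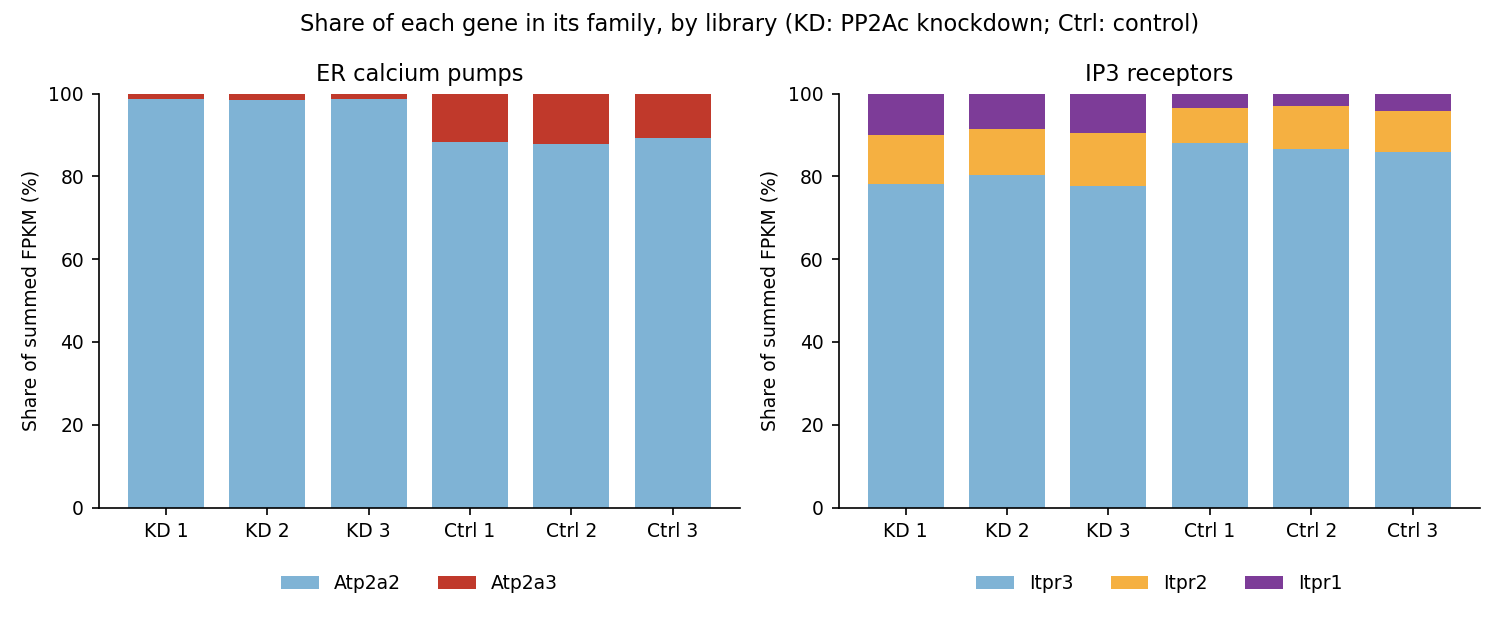
Share of each gene in the summed FPKM of its family, in percent, for the 3 knockdown libraries (KD, left) and the 3 control libraries (Ctrl, right). Atp2a3 is a thin band of 1.32% to 1.48% in knockdown libraries against 10.7% to 12.2% in control libraries, and the Itpr1 band is wider in knockdown, at 8.59% to 9.88%, than in control, at 2.95% to 4.21%.

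Both store entry genes were higher in knockdown cells. Stim1 (ENSMUSG00000030987, chromosome 7, 102267806 to 102437319, plus strand), the calcium sensor of the reticulum, had 8.21, 8.84 and 7.83 FPKM in knockdown libraries, against 3.54, 3.38 and 3.70 FPKM in control libraries. The groups were well separated, at 2.34-fold by the means, and the log2 difference was 1.03 (SE 0.0762). Orai1 (ENSMUSG00000049686, chromosome 5, 123015074 to 123030456, plus strand), the pore that STIM1 opens, had 15.5, 16.4 and 13.1 FPKM in knockdown libraries, against 8.82, 8.48 and 8.33 FPKM in control libraries. Knockdown library 3 was the lowest of its group and still above every control library. The difference was 1.76-fold by the means and 0.74 on the log2 scale (SE 0.0882). Stim1 was higher relative to Orai1 in knockdown, with an FPKM ratio of 0.555 ± 0.0363 in knockdown and 0.415 ± 0.0254 in control (SD, n = 3 each).

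The order of levels by FPKM therefore changed for some of the genes. In knockdown cells it ran from Atp2a2 and Itpr3 through Orai1, Stim1, Atp2b1, Atp2c1, Itpr2, Itpr1 and Atp2a3 to Atp2b4. In control cells Atp2a2 and Itpr3 were followed by Atp2a3, Atp2b1, Orai1, Atp2c1, Itpr2, Stim1, Itpr1 and Atp2b4. The ranges over libraries of neighbours in the order overlapped for Stim1 and Atp2b1 in knockdown and for Atp2a3 and Atp2b1 in control, and for no other pair of neighbours. FPKM depends on the gene lengths used, which were 2295 bases for Orai1 and 18319 for Itpr1, and levels of different genes are comparable only as far as those lengths hold.

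**Figure D3:**
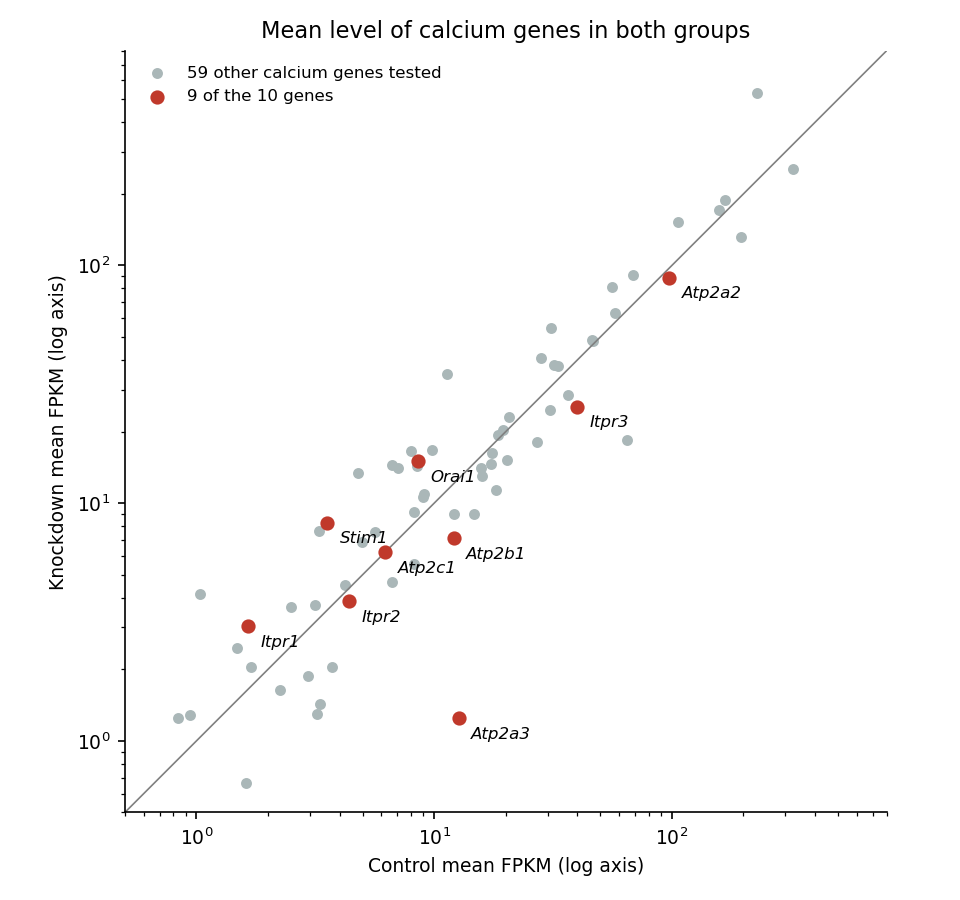
Mean FPKM in knockdown (vertical) against mean FPKM in control (horizontal), both on log axes, for 9 of the 10 genes (red) and 59 other calcium genes (grey); the line marks equal levels. Atp2a3 lies far below the line, at 1.25 FPKM in knockdown against 12.7 FPKM in control, and Stim1 lies above it, at 8.29 FPKM in knockdown against 3.54 FPKM in control.

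Of the 9 genes in the fit, 3 were past the threshold as higher and 3 as lower. That is 66.7%, near the 62.4% of all tested genes, and since the genes were chosen with this contrast known nothing is read from it. Including Atp2b4, the groups did not overlap for 8 of the 10 genes, and among all tested genes they did not overlap for 68.1%. The summed FPKM of all 10 genes was 159.2 ± 3.37 in knockdown and 186.6 ± 4.58 in control (SD, n = 3 each).

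Markers of other cell types also moved between these groups. The sum of 10 fibroblast and smooth muscle markers was 278.3 to 316.6 FPKM in knockdown libraries and 107.0 to 125.9 FPKM in control libraries. The collagen genes Col1a1, Col1a2 and Col3a1 make up most of it. Of the tested members 5 of 5 were higher, and Lum was at 0 in all. Of those too low to test, Dcn and Acta2 were higher. Tagln went the other way, at 0.0441 FPKM in knockdown and 0.253 FPKM in control. Thy1 was lower on average, at 0.00727 FPKM in knockdown and 0.0279 FPKM in control, with overlapping groups. For 8 tuft cell markers the sum was 1.6 to 2.15 FPKM in knockdown libraries and 71.0 to 86.1 FPKM in control libraries; 2 of 2 tested members, Avil and Sh2d6, were lower, and Gnat3 and Il25 were listed at 0 in all. Avil and Sh2d6 make up most of the sum. Among the markers too low to test, Trpm5 (0.161 FPKM in knockdown and 0.0620 FPKM in control), Pou2f3 (0.0776 FPKM in knockdown and 0.0199 FPKM in control) and Plcb2 (0.0631 FPKM in knockdown and 0.0252 FPKM in control) were higher in every knockdown library than in any control library. This rests on few reads. Pou2f3 had 5, 4 and 2 reads in knockdown libraries and 1, 0 and 2 in control libraries. Plcb2 had 6, 6 and 7 reads in knockdown libraries and 5, 1 and 2 in control libraries. Dclk1 was lower on average, at 0.00566 FPKM in knockdown and 0.00955 FPKM in control, with overlapping groups. Blood cell markers summed to 2.22 to 2.31 FPKM in knockdown libraries and 0.976 to 1.45 FPKM in control libraries, with Cd3e, Itgam and Adgre1 among those at 0 and 0 of 10 high enough to test. The 9 duct and acinar markers summed to 2.90 to 3.54 FPKM in knockdown libraries and 0.377 to 0.561 FPKM in control libraries. Cela1 (1.93 FPKM in knockdown and 0.108 FPKM in control) and Muc1 (0.821 FPKM in knockdown and 0.332 FPKM in control) make up most of this sum. Only Cela1 was high enough to test, and it was higher. Prss2 and Amy2a5 were listed at 0 in all, and Cftr went the other way, with 0 reads in knockdown and 6 in control. The sums were at most 0.382 FPKM in knockdown and 0.686 FPKM in control for 6 endothelial markers, and at most 0.480 FPKM in knockdown and 1.14 FPKM in control for 7 markers of other islet cells. Their part in the differences of the calcium genes was not tested. In bulk RNA, fewer cells with a transcript and less of it per cell cannot be told apart.

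The other genes of calcium handling were read from 7 lists arranged by role. Of 97 listed genes 95 were in the table and 59 were high enough to test. In knockdown 23 were higher, 20 were lower and 16 were not past the threshold, so 72.9% were past it, against 62.4% of all tested genes. The lists were made with earlier results of these data known, so nothing is read from this share. With equal sums of nuclear protein-coding FPKM 18 of 59 were higher and 20 lower, where 7120 of all 11665 genes tested were past the threshold. Without knockdown library 1 the count was 18 of 58 in each direction, where 6498 of 11696 were past it. The median log2 difference was 0.13 over the 59 genes and 0.03 over all genes tested.

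In the partners of store entry, 3 of 7 tested genes rose and 2 fell. Orai3, a second pore subunit gene, rose to 16.3, 18.1 and 15.2 FPKM in knockdown libraries, against 7.62, 8.43 and 7.97 FPKM in control libraries (log2 difference 0.96, SE 0.0822, limma adjusted p = 3.80e-05). It stood apart from control in every library, as Orai1 did. Orai2, the other family member, averaged 10.9 ± 0.587 FPKM in knockdown and 9.06 ± 0.566 FPKM in control (SD, n = 3 each), a difference of 0.24 with a limma adjusted p of 0.0204 that was lost, at 0.0608 to 0.0692, when knockdown library 1 or 2 or control library 1 or 3 was left out, and with equal sums of nuclear protein-coding FPKM (0.0813). Cracr2b, a regulator of the ORAI and STIM complex, fell to 4.65 ± 0.663 FPKM in knockdown against 6.66 ± 0.549 FPKM in control, and Esyt1, a tether between the reticulum and the plasma membrane, fell to 9.03 ± 0.375 FPKM against 12.1 ± 0.163 FPKM in control. Saraf, the other gene that rose, averaged 38.0 ± 2.98 FPKM in knockdown and 32.0 ± 2.42 FPKM in control (log2 difference 0.24, limma adjusted p = 0.0333). Saraf is named after its values were seen and was not followed over the alternatives. Stim2, the second sensor gene, named here after its values were seen, had 14.5, 13.5 and 14.2 FPKM in knockdown libraries, against 15.5, 14.6 and 16.9 FPKM in control libraries, and was not past the threshold (limma adjusted p = 0.130).

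Among genes that make or break down IP3, 6 of 12 rose and 4 fell. Itpkb, a kinase that phosphorylates IP3, rose to 4.16 ± 0.389 FPKM in knockdown against 1.04 ± 0.166 FPKM in control (log2 difference 1.34, SE 0.108, limma adjusted p = 2.88e-05). Impa2, an inositol monophosphatase, rose to 13.4 ± 0.956 FPKM in knockdown against 4.79 ± 0.221 FPKM in control (1.31, SE 0.0764). The phospholipase C genes were split, with 3 of 6 tested higher and 3 lower. Plcd1 and Plcg1 rose: Plcd1 had 14.0 ± 0.112 FPKM in knockdown and 7.04 ± 0.106 FPKM in control, and Plcg1 had 16.8 ± 0.845 FPKM in knockdown and 9.77 ± 0.217 FPKM in control (SD, n = 3 each). Plcb3 was just past the threshold (log2 difference 0.18, limma adjusted p = 0.0489). Plcb4 fell to 1.43 ± 0.178 FPKM in knockdown against 3.31 ± 0.441 FPKM in control (-0.83, SE 0.114, limma adjusted p = 0.000384). Plcd3 (-0.57) and Plcb1 (-0.45) fell as well, as did Inpp5a (-0.65), which encodes a phosphatase that breaks down IP3. Plcb3 and these 4 genes that fell are named after their values were seen.

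Partners of the IP3 receptors and other release channels mostly fell or stayed short of the threshold, with 1 of 12 higher and 5 lower. Erlin1, part of a reticulum complex that targets IP3 receptors for degradation, fell to 19.0, 16.8 and 19.3 FPKM in knockdown libraries, against 64.6, 62.2 and 67.5 FPKM in control libraries (log2 difference -1.76, SE 0.0755, limma adjusted p = 2.32e-06). No library of either group came near the other group. Ahcyl2, a relative of an IP3 receptor binding protein, fell to 2.05 ± 0.0846 FPKM in knockdown against 3.70 ± 0.180 FPKM in control. Tmco1, reported as a calcium leak channel of the reticulum, fell to 15.2 ± 1.5 FPKM in knockdown against 20.2 ± 2.05 FPKM in control. Tmem38a, which encodes the counter-ion channel TRIC-A, was the member that rose, to 7.64 ± 1.55 FPKM in knockdown against 3.27 ± 0.259 FPKM in control (1.01, SE 0.126). The ryanodine receptor genes Ryr1, Ryr2 and Ryr3, named after their values were seen, had means of at most 0.0270 FPKM in knockdown and 0.0385 FPKM in control.

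Calcium-binding proteins of the reticulum and the secretory pathway rose for 6 of 10 tested genes and fell for 2. Calr, which encodes calreticulin, a main calcium buffer of the reticulum, rose to 534.3, 557.5 and 496.2 FPKM in knockdown libraries, against 231.5, 234.6 and 219.5 FPKM in control libraries (log2 difference 1.21, SE 0.0759, limma adjusted p = 9.54e-06). This was the largest change in FPKM among the 59 genes. Rcn1, another reticulum protein of this kind, rose to 14.5 ± 0.616 FPKM in knockdown against 6.62 ± 0.263 FPKM in control. The Golgi proteins Nucb1 and Sdf4 rose as well, Nucb1 to 54.8 ± 5.37 FPKM in knockdown against 30.9 ± 0.975 FPKM in control and Sdf4 to 40.7 ± 2.19 FPKM in knockdown against 28.2 ± 1.05 FPKM in control (SD, n = 3 each). The 2 that fell, named here after their values were seen, were Hspa5 and Calu. Hspa5 had 254.1 ± 4.04 FPKM in knockdown and 323.5 ± 13.7 FPKM in control (log2 difference -0.35). Calu had 131.9 ± 8.18 FPKM in knockdown and 194.4 ± 16.6 FPKM in control (-0.55).

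For mitochondrial calcium uptake, 4 of 12 genes rose and 6 fell. The uniporter pore gene Mcu fell to 5.54 ± 0.0857 FPKM in knockdown against 8.20 ± 0.528 FPKM in control (log2 difference -0.49, SE 0.0725, limma adjusted p = 0.000550). Micu2, which encodes a gatekeeper of the uniporter, rose to 14.4 ± 0.228 FPKM in knockdown against 8.46 ± 0.545 FPKM in control. Vdac1, the outer membrane channel, rose to 152.4 ± 5.08 FPKM in knockdown against 105.7 ± 5.70 FPKM in control; it has pseudogenes, so reads may have been split.

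Voltage-gated channel genes were tested for 5 of 14 listed, with 3 higher and 1 lower. Cacnb3, an auxiliary beta subunit, rose to 34.7, 37.8 and 32.3 FPKM in knockdown libraries, against 9.91, 11.6 and 12.4 FPKM in control libraries (log2 difference 1.55, SE 0.0960, limma adjusted p = 9.29e-06). The pore subunit Cacna1a rose to 7.55 ± 0.0890 FPKM in knockdown against 5.63 ± 0.424 FPKM in control, and the L-type pore subunit Cacna1c rose to 2.45 ± 0.303 FPKM in knockdown against 1.48 ± 0.266 FPKM in control. Cacna2d1, an extracellular auxiliary subunit, fell to 1.30 ± 0.261 FPKM in knockdown against 3.23 ± 0.423 FPKM in control. Of the other pumps and pump regulators, 1 of 10 could be tested, the Golgi ion transporter Tmem165, at 48.7 ± 0.856 FPKM in knockdown and 46.0 ± 1.33 FPKM in control (limma adjusted p = 0.282); 3 of the 10 were listed at 0 in all 6 libraries.

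**Figure D4:**
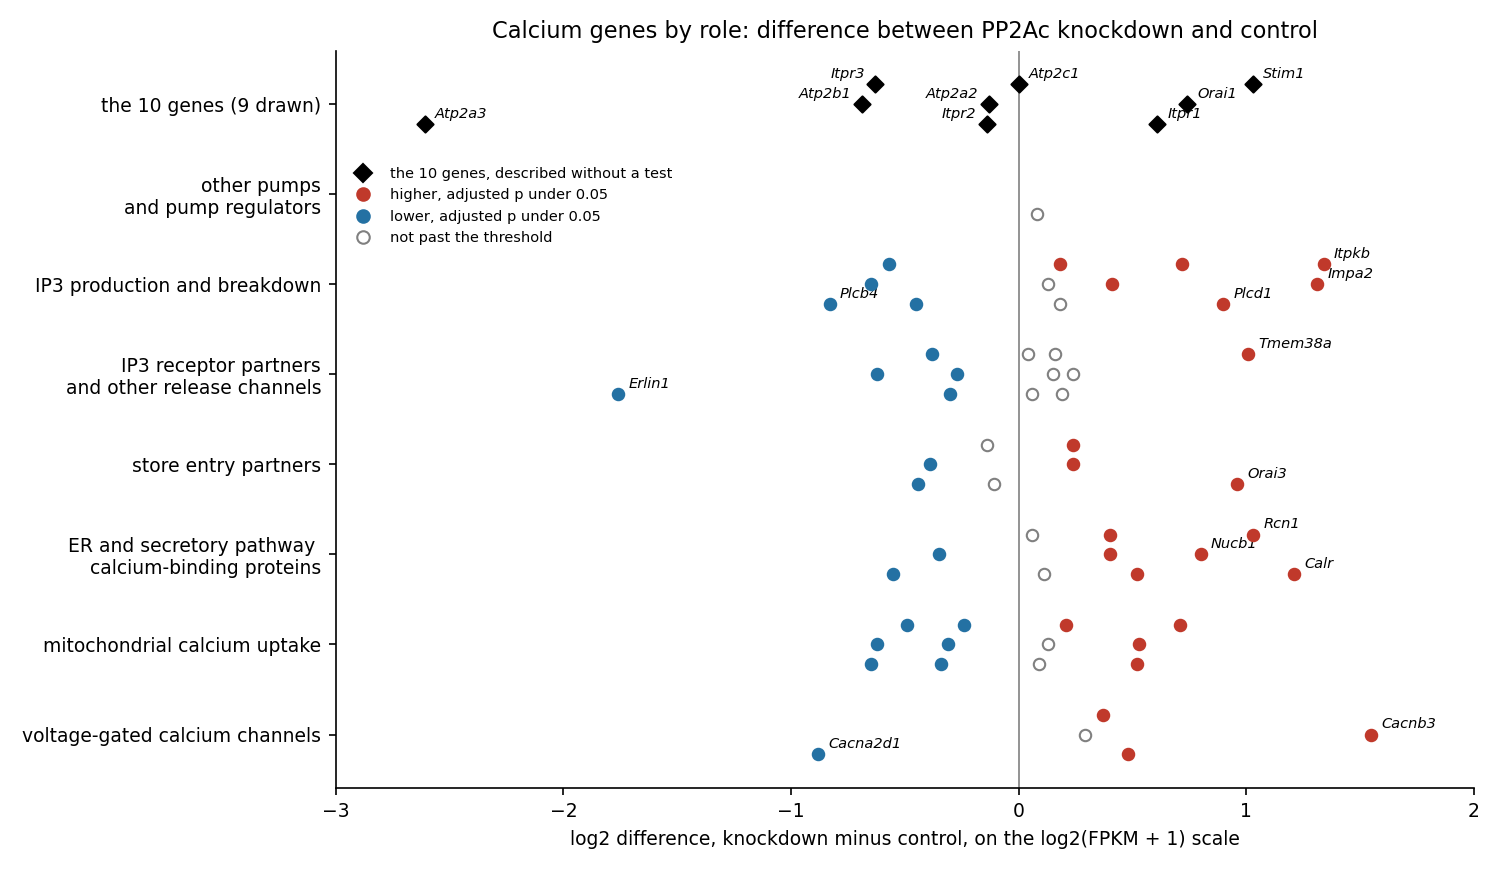
Log2 difference, knockdown minus control on the log2(FPKM + 1) scale, of each tested calcium gene, arranged by role; 9 of the 10 genes are black diamonds described without a test, and circles show 59 other genes as higher (red), lower (blue) or not past the threshold (open) at a limma adjusted p of 0.05. Atp2a3 at -2.61 is the farthest left, Erlin1 at -1.76 the farthest left of the others, and Cacnb3 at 1.55 the farthest right.

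The genes most like Atp2a3 and Stim1 over the 6 libraries were found by the root mean square difference in log2(FPKM + 1), each gene centred on its own mean, among 10005 other protein-coding genes. With the libraries in 2 groups, this measure mainly finds genes with a similar group difference. Nearest to Atp2a3 were Chka, a choline kinase gene (distance 0.0763, 4.24 ± 0.355 FPKM in knockdown and 30.3 ± 2.23 FPKM in control), Csn3, a casein gene (0.133), and Pdzd7, which encodes a scaffold protein (0.144). Nearest to Stim1 were Rcn1 (0.0325), Tead2, a transcription factor gene (0.0330, 29.1 ± 1.80 FPKM in knockdown and 13.6 ± 0.234 FPKM in control), and Rbm10, an RNA-binding protein gene (0.0336).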

How the data were processed

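RNA was sequenced from 3 PP2Ac knockdown and 3 control libraries; per the labels' protocols it was extracted with Trizol, from what the protocol calls frozen tissue although the samples are a cell line, for Illumina TruSeq libraries. The authors deposited FPKM values for 54532 genes. Per the submitters' processing notes the builds are GRCm38 and mm10; no source used here names the aligner, the counter or its strand setting. Multiplying FPKM by gene length gave values in even steps, whole to within 0.01 for 100% of them, and the steps gave the reads. Median-of-ratios factors of the deposited FPKM were equal in all libraries to within 2.73e-07 percent, as they would be had the authors scaled by such factors, though no source used here names the step. In GENCODE M21, 10 of the 10 genes have the same start and end. Replicates differed beyond counting noise (chi-square per degree of freedom 6.58 to 10.0), so none were merged.

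Groups were compared by limma 3.58.1 (R 4.3.3; lmFit, then eBayes with a trend) for the 11652 genes whose mean reached 1 FPKM, after log2(FPKM + 1), with Benjamini-Hochberg adjustment over all of them. Differences on this scale understate the change of low genes. The procedure was also run on simulated data with far fewer changed genes than were called here. That run cannot show how the procedure behaves with so many changes. The 10 genes and all lists were chosen with earlier results of these data known. Named genes are the 10, Ppp2ca, up to 4 per list with the smallest p, and the 3 nearest in pattern to each of the 10 with a log2 difference of at least 1 in size. Itprip and Stimate were not matched and are not analysed here. Protein sequences are not used here, and 1 gene that this rule names is not reported here. Alternatives were a pseudocount of 0.1, no low-value filter, other scalings, limma voom on recovered reads, blocking on the replicate number, and dropping 1 library at a time. Tables were made with Python 3.11.15, pandas 2.3.3, numpy 2.4.6 and scipy 1.17.1.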

Additional observations from a re-analysis of the deposited data

How the results depend on the processing

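Over 13 alternatives and 39 named genes other than Ppp2ca, 493 of 507 values kept their direction and their side of the threshold, and for 35 genes all did. The exceptions were Atp2a2 and Orai2, given above, Atp2c1 and Tmem165. Atp2c1, at 0.00, was -0.07 with equal sums of nuclear protein-coding FPKM, -0.02 with voom and -0.02 with totals of recovered reads, an alternative chosen after seeing the data, and -0.05 to 0.07 with 1 library left out. Tmem165 was -0.01 with equal sums. The number of the 10 genes past the threshold was 6 to 7, that of the other calcium genes 36 to 44 and that of all genes 6473 to 8123. Ppp2ca ranged from -1.82 to -1.61. Counted in recovered reads, the knockdown share minus the control share moved to -8.98 percentage points for Atp2a3 (from -10.2 in FPKM) and -12.1 for Itpr3 (from -8.22), because reads do not correct for gene length. With 1 library left out these ran from -10.6 to -9.84 and from -9.02 to -7.61. Median-of-ratios scaling gave 7258 genes. Its factors were equal in all libraries, so its values among the 507 were bound to stay nearly the same and add no support. A replicate block gave 7363 genes in all, 42 other calcium genes and 6 of the 10. Same-numbered libraries correlated at -0.011, 0.159 and 0.052 in their deviations from group means. Knockdown libraries 2 and 3 correlated best with the control library of their own number, and knockdown library 1 with control library 3 (0.133). All of these values were small, and the numbers are not taken to pair the samples. Reads limit Atp2b4, with 13 over all libraries.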

Other observations

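Several calcium genes known from excitable and endocrine cells had little or no signal in either group. Of 14 voltage-gated channel genes 9 had a mean below 1 FPKM, among them Cacna1d, an L-type pore subunit of beta cells, at 0 FPKM in knockdown and 0.00335 FPKM in control. The sodium-calcium exchanger Slc8a1 and the SERCA inhibitors Pln and Sln were listed at 0 in all 6 libraries. These genes were singled out after their values were seen. In total 9 of the 95 other calcium genes were listed at 0 throughout.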
